A study of Mus musculus with 31 samples.

Results

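Fed livers of mice that had been through earlier fasts were set against fed livers of mice that had not, to see whether an earlier fast leaves a trace in the liver transcriptome once feeding has resumed. The 16 arrays labelled Fast-Fast-Fed (8) and Fed-Fed-Fed (8) were taken by their titles out of 31 arrays in all. Fast-Fast-Fed mice had 2 fasts of 16 h within 8 weeks, with a return to their usual growth after each, and were sampled fed. Fed-Fed-Fed mice came from a cohort of 24 that had food throughout, and they were also sampled fed. All mice were male, pure-bred C57BL/6 and 3 to 4 months old, and all livers were taken in the morning. The other groups of the design, Fed-Fed-Fast (8 arrays) and Fast-Fast-Fast (7 arrays), were sampled at the end of a 16 h fast after 0 or 2 earlier fasts. They are used here for the estimate of the spread and for values set beside the fed ones. Litter, cage, the time since the last earlier fast and the time since the last meal are not given in the sources used here.

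The liver answers a fast by burning fatty acids, making ketone bodies and glucose, and shutting down the synthesis of fat and sterols. Much of that switch runs through the nuclear receptor PPAR-alpha, glucagon and glucocorticoids on one side and insulin with the SREBP transcription factors on the other. A memory of an earlier fast would need a carrier that outlasts the meal, and DNA methylation and histone marks are the carriers usually considered. Such a carrier need not alter transcripts, and chromatin was not measured in the data used here.

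Each array gave 1 RMA value (log2 signal) per probe set, and 22180 genes with a single symbol were tested. The fed arrays resembled each other closely, with Pearson correlations of 0.988 to 0.993 across genes between any pair. The mean correlation was 0.991 within Fed-Fed-Fed, 0.990 within Fast-Fast-Fed and 0.990 between the groups. The hepatocyte product Alb lay at 12.93 or above in every fed array. Whole liver was used, so a smaller share of a cell type and less RNA per cell cannot be told apart.

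No gene passed the test. With limma over all 31 arrays, 0 of 22180 genes differed between Fast-Fast-Fed and Fed-Fed-Fed at an adjusted p under 0.05 (0%), and the smallest adjusted p was 0.373. At an unadjusted p under 0.05 there were 1245 genes (5.61%), of which 650 were higher after earlier fasts (2.93%) and 595 lower (2.68%). The median difference over all genes was 0.00 on the log2 scale, and 11356 genes lay above 0 (51.2%). Probe sets outside the tested genes gave the same count, with 0 of 1814 probe sets of several symbols and 0 of 16010 without a symbol passing (unadjusted p under 0.05 for 118 and 1011 of them).

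A p that misses the threshold does not show that the groups were alike, so the size of difference that the arrays still allow was read from the 95% interval of each gene. The narrowest limit, 25%, runs from a level 25% higher down to the same fold lower. The interval lay wholly inside 25% for 14458 genes (65.2%), inside 1.5-fold in either direction for 21406 (96.5%) and inside 2-fold for 22110 (99.7%). In a limma equivalence test, which asks by 2 one-sided tests whether a difference of 1.5-fold (0.58 on the log2 scale) is too large for the data, 21700 genes passed at an adjusted p under 0.05 (97.8%). The interval of the median gene reached 1.15-fold to either side of its estimate. Only 774 genes had an interval that crossed 1.5-fold, and 70 had one that crossed 2-fold. These limits are limits on array signal, and their width is set by the number of arrays and the spread between mice.

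**Figure D1:**
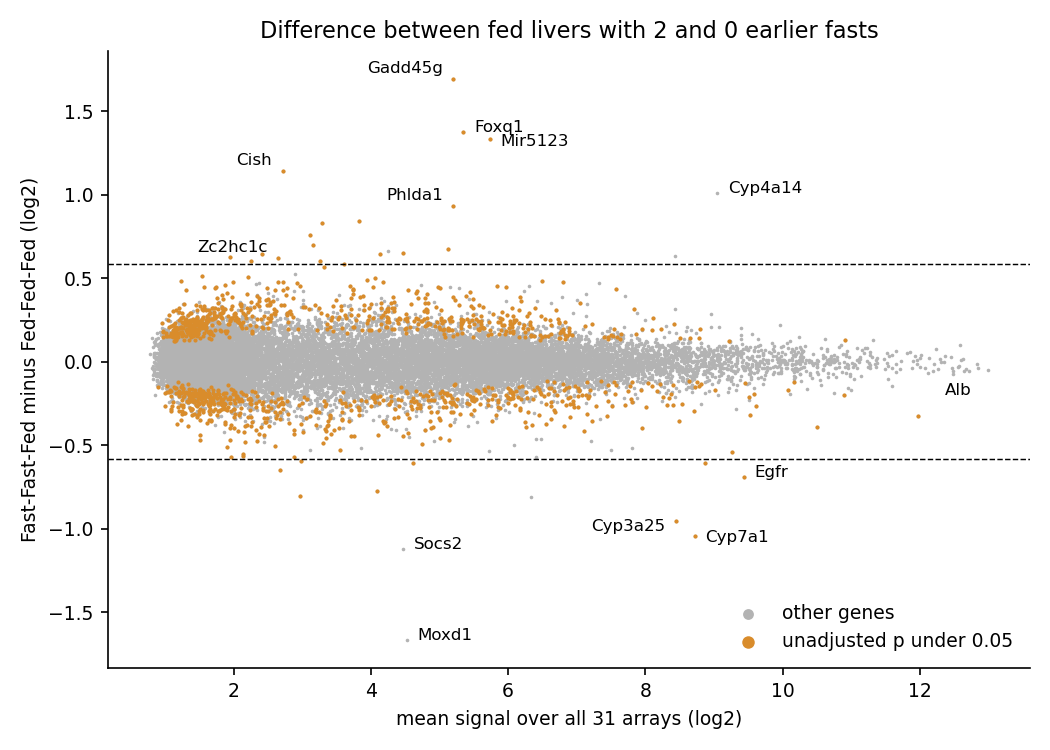
Each point is 1 of 22180 genes, with its mean log2 signal over all 31 arrays on the x axis and the log2 difference Fast-Fast-Fed minus Fed-Fed-Fed on the y axis; orange points have an unadjusted limma p under 0.05 and dashed lines mark 1.5-fold. The differences narrow towards bright genes, with Alb at the far right, and the named genes are those far from 0 or at the extremes of level.

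The bound depended on signal. Among the 10114 genes with a mean signal under 2, 98.8% were inside 1.5-fold, yet the signals of such dim genes vary little on any array, and a bound there says little about the transcript. The loosest class was 2 to 4, where 3835 of 4203 genes were inside 1.5-fold (91.2%) and 1522 inside 25% (36.2%). Above it the bounds tightened, from 95.2% of 4068 genes at 4 to 6, through 97.6% of 2743 genes at 6 to 8 and 97.6% of 818 genes at 8 to 10, to 99.1% of 234 genes at 10 and over. In that brightest class 218 genes were inside 25% (93.2%) and the median interval reached 1.09-fold to either side. G6pc, the gene of glucose-6-phosphatase, had the widest limit of that class, at 1.61-fold. The share of genes with an unadjusted p under 0.05 was 4.58% under 2, 6.93% at 4 to 6 and 2.56% at 10 and over.

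**Figure D2:**
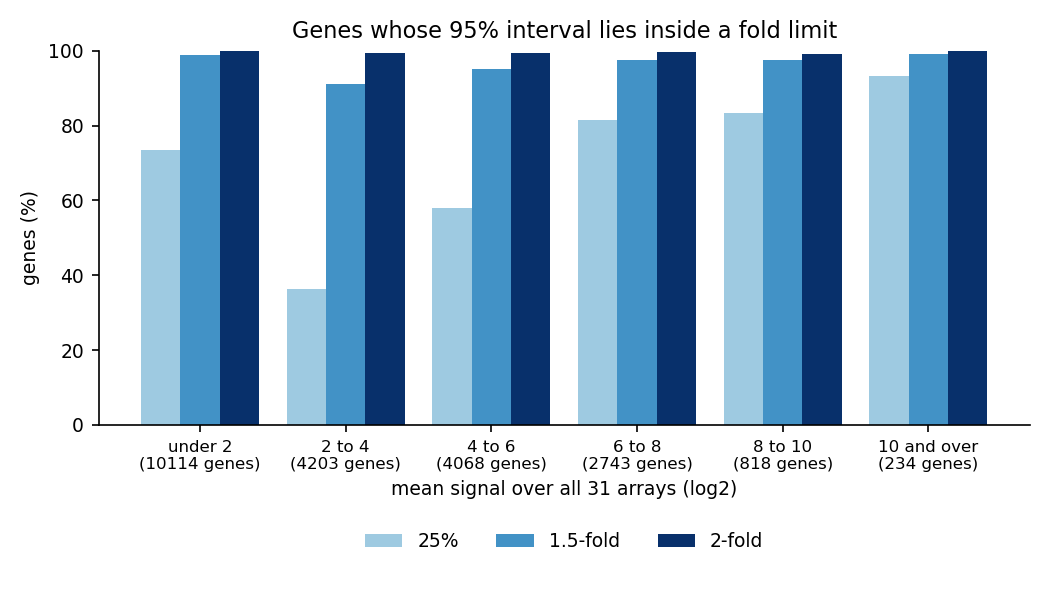
Bars give the percentage of genes, by class of mean log2 signal over all 31 arrays, whose 95% interval for Fast-Fast-Fed minus Fed-Fed-Fed lies inside 25%, 1.5-fold or 2-fold (light, middle and dark bars). The light bars run from 36.2% at 2 to 4 up to 93.2% at 10 and over, while the dark bars are at 99.1% or more in every class.

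The tightest intervals among the named genes belonged to abundant transcripts of the mitochondrion and to Alb. Atp5b, a subunit of ATP synthase, ran from 11.12 to 11.33 (median 11.21) in Fed-Fed-Fed and from 11.17 to 11.31 (median 11.22) in Fast-Fast-Fed. Its interval of -0.09 to 0.10 allows 1.07-fold. Sdha, a subunit of succinate dehydrogenase, and Hspa9, the mitochondrial Hsp70 chaperone, were also bounded at 1.07-fold. Alb was bounded at 1.10-fold, and the mitochondrial genes CYTB and ND4 at 1.08-fold and 1.09-fold.

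At the other end stood genes that differ from mouse to mouse. Moxd1, a monooxygenase-like gene that is higher in male liver, ran from 2.29 to 9.11 (median 5.38) in Fed-Fed-Fed and from 2.02 to 7.83 (median 3.26) in Fast-Fast-Fed. Its difference of -1.67 (SE 0.93, limma unadjusted p = 0.083, adjusted p = 0.90) came with an interval of -3.56 to 0.23, so up to 11.8-fold is allowed. Socs2, a feedback inhibitor of growth hormone signalling, had a median of 5.30 in Fed-Fed-Fed and 3.65 in Fast-Fast-Fed, with an interval of -2.39 to 0.14. All 8 Fast-Fast-Fed arrays lay below the Fed-Fed-Fed median of Socs2, and the ranges overlapped.

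Some wide intervals came from the fasted arrays that share the estimate of the spread. Cyp11b1, a steroid 11-beta-hydroxylase of the adrenal cortex, was dim in every fed array, at 0.87 to 1.47, but its interval of -1.01 to 1.14 was wide. Fitted on the 16 fed arrays alone, that interval was -0.11 to 0.24. For Nr4a1, an orphan nuclear receptor of the immediate early class, the limit went from 2.25-fold to 1.63-fold in the same way, and for the metallothionein gene Mt2 from 1.76-fold to 1.42-fold. The fed arrays alone gave Socs2 an interval of -2.18 to -0.07. Of genes described below, Ppargc1a then ran from 0.16 to 0.74, and the limit of Hsd3b5 went from 1.95-fold to 1.51-fold. For Cyp4a14 the interval widened instead, from -0.04 to 2.06 to -0.38 to 2.41. No gene passed the adjusted test in that limma fit, and its smallest adjusted p was 0.934.

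Genes of the fasting programme gave no called difference, and most were bounded. Of 25 measured genes of fatty acid oxidation, all 25 had intervals inside 1.5-fold and 22 inside 25%, with a median difference of 0.03, and 1 had an unadjusted p under 0.05. That gene was Decr1, a reductase that clears unsaturated fatty acid intermediates, at -0.17 (interval -0.31 to -0.03). Cpt1a, the carnitine transferase that lets long-chain fatty acids into mitochondria, ran from 9.08 to 9.39 (median 9.22) without earlier fasts and from 8.98 to 9.45 (median 9.19) with them. Its difference was -0.03 (interval -0.17 to 0.11), beside 1.36 for the first fast, Fed-Fed-Fast minus Fed-Fed-Fed. That comparison shares the Fed-Fed-Fed arrays and called 2768 genes with limma (12.5%), so its values stand here only side by side.

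PPAR-alpha targets were bounded less tightly. Of 24 measured targets, 14 were inside 1.5-fold and 22 inside 2-fold, with a median difference of 0.07 beside 1.86 for the first fast. Cyp4a14, a fatty acid omega-hydroxylase, spanned 1.93 to 7.62 (median 5.76) in Fed-Fed-Fed and 5.30 to 8.82 (median 6.53) in Fast-Fast-Fed. Its difference of 1.01 (SE 0.52, limma adjusted p = 0.90) had an interval of -0.04 to 2.06, and the first fast gave 6.50. Single Fed-Fed-Fed arrays moved the Cyp4a14 difference, which was 0.48 without replicate 6 and 1.30 without replicate 2. Of the 8 Fast-Fast-Fed arrays, 6 lay above the Fed-Fed-Fed median, and the ranges overlapped widely. Cidec, a lipid droplet protein, differed by 0.29 (interval -0.23 to 0.82, first fast 5.24), and Acot1, an acyl-CoA thioesterase, by 0.22 (interval -0.25 to 0.69, first fast 4.62). Fgf21, a hormone of the fasted liver, went the other way at -0.53 (interval -1.17 to 0.10, first fast 2.04). Slc27a1, a fatty acid transport protein, was the one target with an unadjusted p under 0.05. It ran from 2.55 to 3.42 (median 2.67) in Fed-Fed-Fed and from 2.71 to 3.74 (median 3.23) in Fast-Fast-Fed, a difference of 0.48 (SE 0.15, limma unadjusted p = 0.004, adjusted p = 0.782).

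In gluconeogenesis, 14 of 17 genes were inside 1.5-fold and the median difference was 0.00. An unadjusted p under 0.05 went to 3 of the 17, beside 5.61% of all genes, namely G6pc, Ppargc1a and the aspartate aminotransferase gene Got2 (0.13, and 0.08 without Fed-Fed-Fed replicate 2). Pck1, the gene of phosphoenolpyruvate carboxykinase, ran from 10.22 to 11.05 (median 10.70) and from 9.95 to 11.24 (median 10.77), a difference of 0.04 (interval -0.23 to 0.32, first fast 1.26). G6pc was lower by this estimate, with 10.23 to 11.04 (median 10.42) against 9.57 to 10.89 (median 10.10) after earlier fasts, and its difference was -0.39 (SE 0.15, limma unadjusted p = 0.012, adjusted p = 0.856). Ppargc1a, a coactivator of gluconeogenic genes, went the opposite way at 0.45 (interval 0.00 to 0.90, limma unadjusted p = 0.049, adjusted p = 0.888). All 8 Fast-Fast-Fed arrays exceeded the Fed-Fed-Fed median for Ppargc1a.

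Genes of lipid and sterol synthesis, which a fast shuts off, were bounded in much the same way. All 19 cholesterol synthesis genes were inside 1.5-fold, with a median difference of 0.07 beside -2.11 for the first fast, and that median was -0.02 without Fed-Fed-Fed replicate 3. Sqle, the squalene epoxidase gene, differed by 0.10 (interval -0.35 to 0.56, first fast -3.45). Leaving out single fed arrays carried its limit past 1.5-fold in 9 of 16 cases. In glycolysis and lipogenesis 19 of 23 genes were inside 1.5-fold. Fasn, the fatty acid synthase gene, differed by -0.03 (interval -0.47 to 0.41, first fast -3.03), and Srebf1, the transcription factor of lipogenic genes, by 0.02 (interval -0.36 to 0.40, first fast -2.93). Hsd3b5, a steroid dehydrogenase of male liver, differed by -0.26 (interval -0.96 to 0.44, first fast -5.22). Igfbp1, an insulin-repressed binding protein, differed by -0.24 (interval -0.98 to 0.50), and Mt2, a target of glucocorticoids and metals, by -0.06 (interval -0.82 to 0.70).

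**Figure D3:**
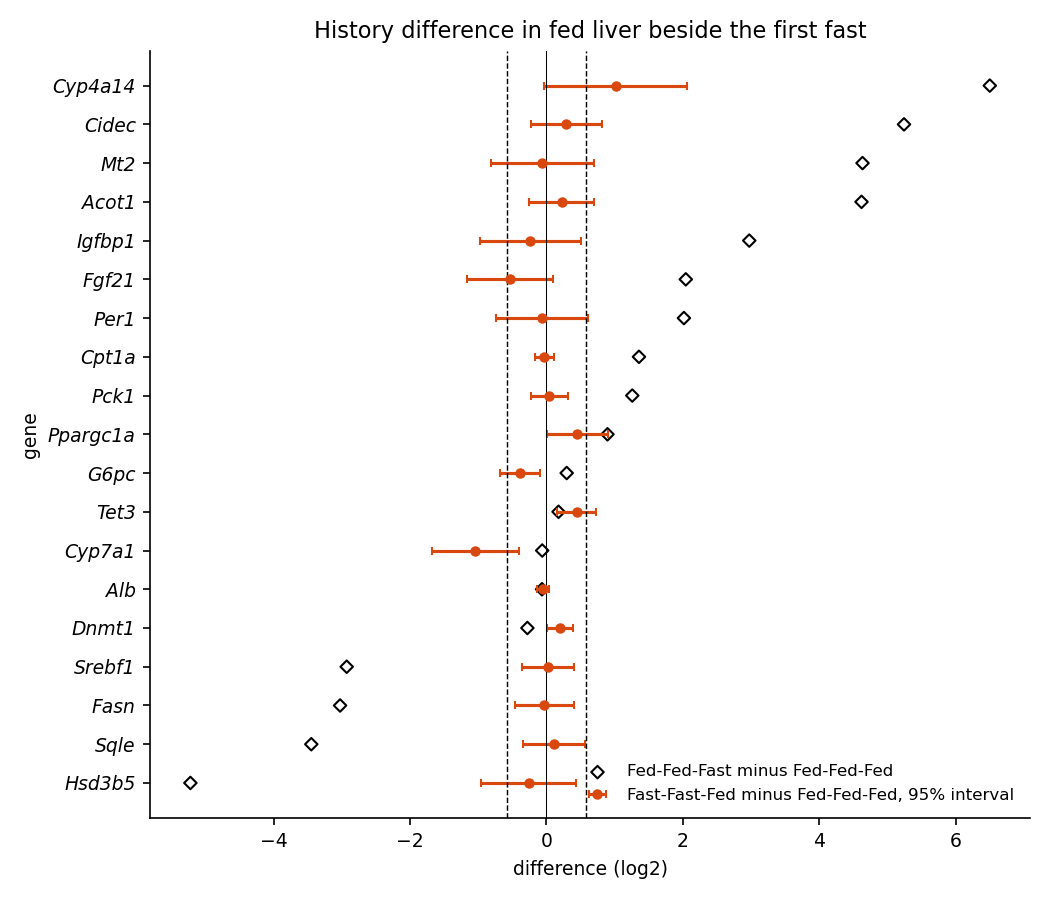
Orange points are the log2 difference Fast-Fast-Fed minus Fed-Fed-Fed with its 95% interval for 19 genes, and open diamonds are Fed-Fed-Fast minus Fed-Fed-Fed, which shares the Fed-Fed-Fed arrays; dashed lines mark 1.5-fold. For Cyp4a14, Cidec, Fasn, Sqle and Hsd3b5 the interval ends far short of the diamond, whereas for G6pc, Tet3 and Cyp7a1 the diamond lies within 0.30 of 0.

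Among genes of the machinery that could carry a memory, histone enzymes were bounded more tightly than DNA methylation enzymes. They were also brighter, with a median signal of 5.71 against 4.34, beside 2.26 for all genes. Since the bound depended on signal, the contrast is not one of function alone. All 51 measured histone-modifying enzymes were inside 1.5-fold and 41 inside 25%, beside 96.5% and 65.2% of all genes. Their median difference was 0.03. Of them 5 had an unadjusted p under 0.05 and were higher, and 1 was lower. The higher ones were the methyltransferases Kmt2a (0.20), Kmt2b (0.20), Setd2 (0.15) and Ehmt2 (0.22) and the demethylase Kdm6b (0.28), and the lower one was the demethylase Kdm6a (-0.22). Among 13 enzymes that write or remove DNA methylation, 12 were inside 1.5-fold (92.3%) and 6 inside 25% (46.2%). Of the 13, 3 had an unadjusted p under 0.05, all higher after earlier fasts. Tet3, a dioxygenase that oxidises methylcytosine, ran from 3.13 to 4.56 (median 3.98) in Fed-Fed-Fed and from 3.83 to 4.67 (median 4.31) in Fast-Fast-Fed. Its difference was 0.45 (SE 0.14, limma unadjusted p = 0.0032, adjusted p = 0.755). The methyltransferases Dnmt3a and Dnmt1 differed by 0.24 and 0.20. These shares, 6 of 51 and 3 of 13, stand beside 5.61% of all genes, and no enzyme passed the adjusted test.

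The differences of smallest p belonged to genes of several functions. Zc2hc1c, a zinc finger protein gene, ran from 1.83 to 2.95 (median 2.32) in Fed-Fed-Fed and from 2.67 to 3.32 (median 2.90) in Fast-Fast-Fed, a difference of 0.62 (SE 0.13, limma adjusted p = 0.373). The groups overlapped in their ranges, although all 8 Fast-Fast-Fed arrays lay above the Fed-Fed-Fed median. Ak4, a mitochondrial adenylate kinase, ran from 5.79 to 6.35 (median 6.11) and from 6.27 to 6.71 (median 6.46), a difference of 0.39 (SE 0.08). Strbp, an RNA-binding protein gene, differed by 0.28, the small GTPase gene Rnd3 by 0.45, the GTPase-activating protein gene Arhgap31 by 0.41 and the gamma-tubulin complex gene Tubgcp6 by 0.50. Lower values belonged to Prmt5, an arginine methyltransferase (-0.30), Snrpd1, a core splicing protein (-0.49), Taf9, a subunit of the general factor TFIID (-0.29), Cd3eap, an RNA polymerase I subunit (-0.45), and Atxn1, the ataxin-1 gene (-0.42). H2-M10.4, a non-classical MHC gene, and Olfr1135, an olfactory receptor gene, at 0.48 and -0.47, had mean signals of 1.23 and 1.51, near the bottom of the scale.

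Of these genes, Zc2hc1c passed without Fed-Fed-Fed replicate 4 (difference 0.71, limma adjusted p = 0.0243), and Rnd3 passed without Fast-Fast-Fed replicate 1 (difference 0.55, limma adjusted p = 0.0300). In each case it was the only gene that passed. In 2 genes of 22180 the groups did not overlap at all (0.00902%), and both were picked out after their values were seen. Trim8, a ubiquitin ligase, lay at 5.50 to 5.89 (median 5.77) in Fed-Fed-Fed and at 5.89 to 6.30 (median 5.91) in Fast-Fast-Fed, a difference of 0.24 (limma adjusted p = 0.755), and the ranges met at 5.89 after rounding. Myt1l, a neuronal zinc finger factor with a mean signal of 1.47, differed by 0.17.

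Several of the largest differences came from 5 of the 8 Fast-Fast-Fed arrays. For Foxq1, a forkhead transcription factor, replicates 2, 4, 5, 6 and 8 lay at 7.02 to 7.99, while replicates 1, 3 and 7 lay at 4.79 to 5.68. The 8 Fed-Fed-Fed arrays lay at 4.62 to 6.33 (median 5.15), so 3 Fast-Fast-Fed livers lay within the control range and 5 above every control. The difference of group means was 1.37 (SE 0.34, limma unadjusted p = 0.00031, adjusted p = 0.583). Over the same 16 fed arrays the exact permutation p was 0.016 before adjustment. Foxq1 was named for its small p, so a second p from these arrays is no separate support. Since fed arrays varied more than fasted ones for this gene, the fit on fed arrays alone gave a wider interval, 0.50 to 2.25 against 0.68 to 2.07.

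The same 5 arrays were the 5 highest of the 16 for 16 of the 22180 genes, a set picked out after its values were seen and so given without a test. Besides Foxq1 they were Gadd45g, Phlda1, Cish, Socs3, Csrnp1, Mir5123, Ppargc1a, Bmp6, Sik2, Gdf11, Eid3, Mir495 and 3 numbered gene models. How many genes other sets of 5 arrays share in this way was not counted, so part of the set may be chance. Gdf11 and Mir495 were dim, with mean signals of 1.47 and 1.12. Eid3 differed by 0.32 and Mir495 by 0.18, each with a limma unadjusted p above 0.05. Gadd45g, a growth arrest and stress gene, lay at 5.87 to 7.35 in those 5 arrays, at 2.36 to 3.25 in the other three and at 2.76 to 4.17 in Fed-Fed-Fed. Its difference of group means was the largest of all genes, 1.69 (SE 0.58, limma unadjusted p = 0.0063, adjusted p = 0.806), and the first fast gave 3.04. Phlda1, a pleckstrin homology-like protein, lay at 6.62 to 7.24, at 4.66 to 5.22 and at 4.77 to 5.89 in the same order. Csrnp1, a nuclear protein of the immediate early class, lay at 3.44 to 4.46, at 2.34 to 2.94 and at 2.40 to 3.21. On the 16 fed arrays alone the SE was larger for Mir5123 (0.37 against 0.30), Cish (0.37 against 0.32) and Phlda1 (0.32 against 0.28). The same held for Gadd45g (0.62 against 0.58) and Socs3 (0.31 against 0.30). It was smaller for Csrnp1 (0.24 against 0.25) and Ppargc1a (0.14 against 0.22).

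These genes did not share a sign in the first fast, whose estimates were 3.04 for Gadd45g, 0.58 for Csrnp1 and 0.89 for Ppargc1a but -0.53 for Foxq1 and -0.51 for Phlda1. In the fasted arrays the history differences of the same genes were 0.16 for Foxq1, -0.59 for Gadd45g, 0.09 for Phlda1, 0.03 for Cish and -0.44 for Csrnp1, none with a limma adjusted p under 0.05. The quality weights of the 5 arrays ran from 0.71 (replicate 5, the lowest of its group) to 1.15 (replicate 4), and those of replicates 1, 3 and 7 from 0.94 to 1.06. The part of array quality in the pattern was not tested.

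**Figure D4:**
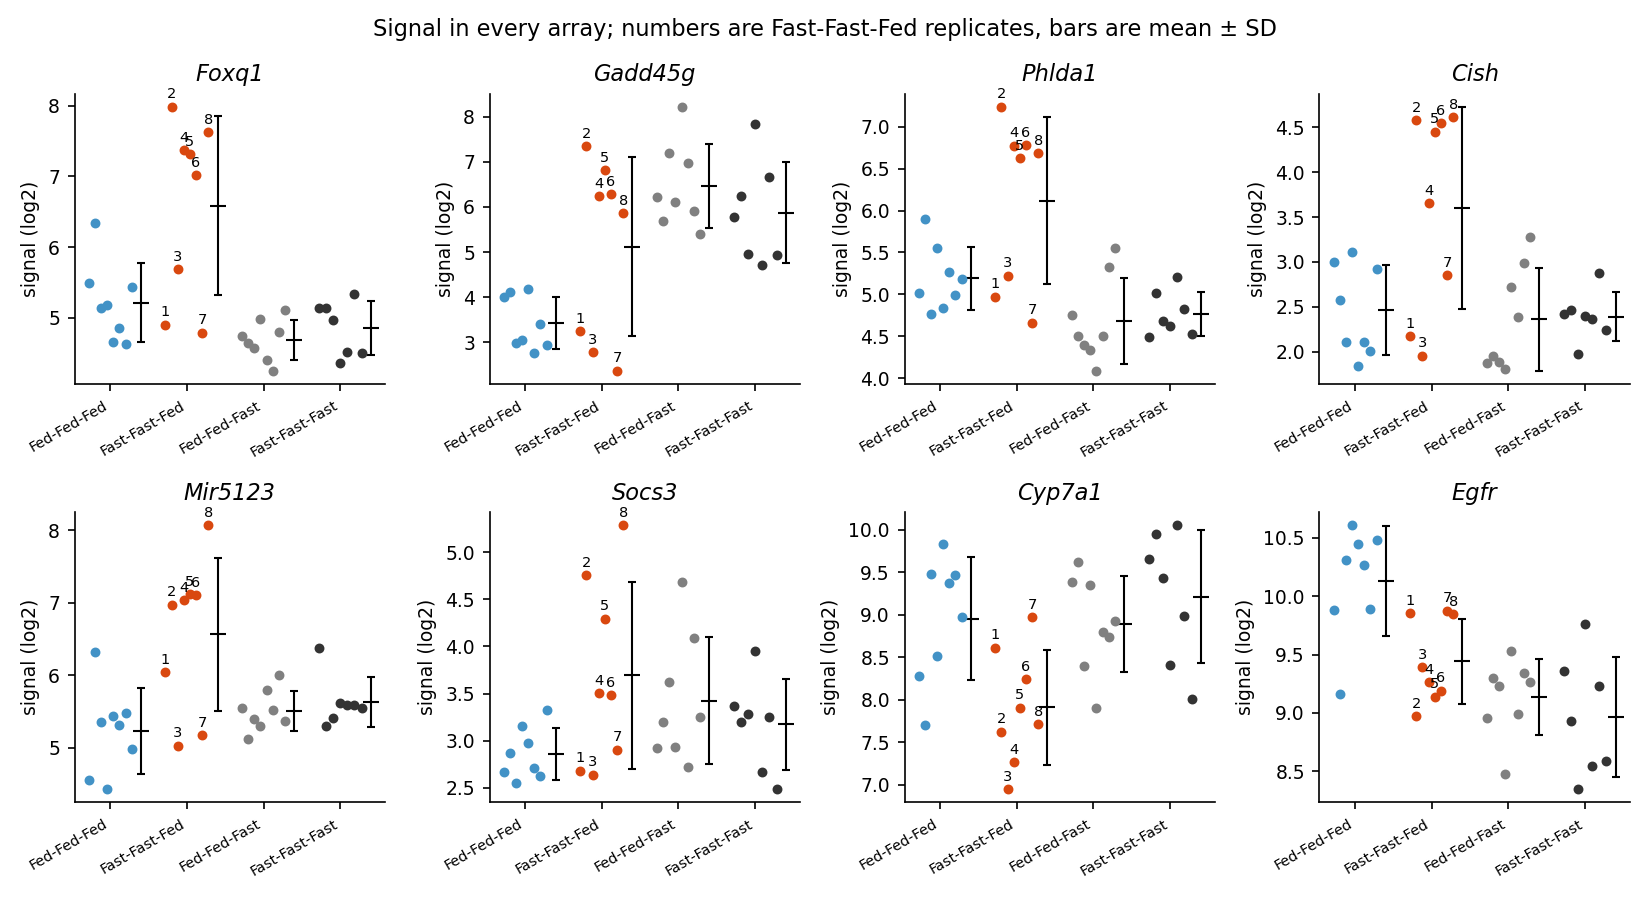
Points are the log2 signal of 8 genes in each of the 31 arrays by group, numbers are Fast-Fast-Fed replicates, and bars are group mean ± SD. In Foxq1, Gadd45g, Phlda1, Cish, Mir5123 and Socs3 replicates 2, 4, 5, 6 and 8 stand above all Fed-Fed-Fed arrays, whereas in Cyp7a1 and Egfr the order of the replicates is another.

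Mir5123 showed the pattern with the smallest p of the set, and its sequence is given because the locus is a repeat. The probe set is annotated to the gene and does not separate the precursor from the mature form. The hairpin, from RefSeq on GRCm38.p6, lies at chr4:40850056-40850138 on the minus strand, within the span of B4galt1, a galactosyltransferase gene. Capitals mark the annotated mature miRNA in the hairpin, and the seed, bases 2 to 8, in the mature form.
Mir5123 hairpin: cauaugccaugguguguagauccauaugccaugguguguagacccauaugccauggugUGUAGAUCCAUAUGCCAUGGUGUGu
mmu-miR-5123: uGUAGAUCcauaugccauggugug
The hairpin repeats itself with a period of 22 bases, at which 59 of 61 positions match, and it holds 2 exact copies of the mature sequence. Mir5123 lay at 6.97 to 8.07 in replicates 2, 4, 5, 6 and 8, at 5.03 to 6.04 in replicates 1, 3 and 7 and at 4.43 to 6.32 (median 5.33) in Fed-Fed-Fed. The difference was 1.33 (SE 0.30, limma adjusted p = 0.373). B4galt1, chosen after its value was seen, differed by -0.16 (interval -0.45 to 0.14), with ranges of 6.76 to 8.10 and 6.62 to 7.40.

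Cish and Socs3 code for feedback inhibitors that are induced by cytokine and growth hormone receptors through STAT factors. Cish lay at 3.65 to 4.61 in replicates 2, 4, 5, 6 and 8, at 1.95 to 2.85 in the other three and at 1.84 to 3.11 (median 2.34) in Fed-Fed-Fed. Its difference was 1.14 (SE 0.32, limma unadjusted p = 0.0012, adjusted p = 0.731). Socs3 lay at 3.49 to 5.28, at 2.64 to 2.91 and at 2.55 to 3.33 (median 2.79), and its difference was 0.83 (SE 0.30, adjusted p = 0.856). Dimmer second probe sets of Cish, Socs3 and Foxq1 were closer to 0. That of Cish (mean signal 2.06) differed by 0.19, that of Socs3 (1.87) by 0.07 and that of Foxq1 (1.94) by -0.03. Since Cish and Socs3 were high in the same arrays, their promoters are shown, from 250 bases before to 50 after the start in RefSeq on GRCm38.p6, with capitals marking TTCNNNGAA, the core that STAT factors bind.
Cish, chr9:107296409-107296708, plus strand: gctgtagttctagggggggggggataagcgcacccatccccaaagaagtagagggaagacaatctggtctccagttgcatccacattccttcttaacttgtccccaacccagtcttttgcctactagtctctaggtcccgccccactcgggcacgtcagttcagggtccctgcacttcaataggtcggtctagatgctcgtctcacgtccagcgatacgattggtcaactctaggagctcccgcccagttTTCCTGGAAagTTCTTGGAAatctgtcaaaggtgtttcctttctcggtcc
Socs3, chr11:117969317-117969616, minus strand: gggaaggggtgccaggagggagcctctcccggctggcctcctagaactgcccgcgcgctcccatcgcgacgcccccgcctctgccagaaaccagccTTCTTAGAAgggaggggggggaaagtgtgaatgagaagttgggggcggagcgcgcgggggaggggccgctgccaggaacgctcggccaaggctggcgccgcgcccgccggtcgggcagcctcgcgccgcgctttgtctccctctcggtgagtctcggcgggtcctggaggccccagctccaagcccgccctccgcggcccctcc
The motif reads the same on both strands. It occurs at bases 1 to 9 and 12 to 20 from the start of Cish and at bases -154 to -146 of Socs3. Of 32851 promoter windows of this length, 8.30% hold at least 1 match and 0.457% hold 2 or more. The windows of Gadd45g, Socs1, Ak4 and Egfr hold 0 matches. Those of Foxq1, Phlda1, Csrnp1 and the other genes high in the same arrays were not read singly. A match is a stretch of letters, and binding was not measured.

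The other genes of the growth hormone axis gave a mixed picture. Of 17 measured members 5 had an unadjusted p under 0.05, all higher, beside 2.93% of all genes that were higher at that threshold. Both Cish and Socs3 had already been picked out by their values. The list's median difference was 0.08, with 12 members above 0 and 5 below. Besides Cish and Socs3 these were Jak2, the receptor's kinase (0.22), Stat5a, a transcription factor it activates (0.30), and Socs1, another feedback inhibitor (0.28, at a mean signal of 1.80). Jak2 ran from 6.08 to 6.46 (median 6.29) in Fed-Fed-Fed and from 6.38 to 6.67 (median 6.51) in Fast-Fast-Fed, and all 8 arrays of the latter exceeded the former's median. Socs2, a further target, stood at -1.12, and its second probe set (mean signal 2.76) at 0.02. Igf1, the main growth factor made under growth hormone in liver, differed by 0.02 (interval -0.14 to 0.18), and the receptor gene Ghr by 0.00 (interval -0.22 to 0.22). None of the 17 passed the adjusted test.

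Bile acid synthesis held the lowest estimate among genes with a mean signal of 6 or over. Cyp7a1, its rate-limiting enzyme, ran from 7.71 to 9.83 (median 9.17) in Fed-Fed-Fed and from 6.95 to 8.97 (median 7.81) in Fast-Fast-Fed. All 8 arrays after earlier fasts lay below the control median, and the difference was -1.04 (SE 0.31, limma unadjusted p = 0.0023, adjusted p = 0.755). In the fasted arrays the history difference of Cyp7a1 was 0.32, and its interaction did not pass (limma unadjusted p = 0.0050). The first fast gave -0.06. The other bile acid genes were closer to 0, with a list median of -0.01 over 16 genes and 13 inside 1.5-fold. Of the 16, 2 had an unadjusted p under 0.05, Cyp7a1 and Nr1h4, beside 5.61% of all genes. Nr1h4, the bile acid receptor FXR, differed by -0.19 and Nr0b2, the repressor SHP that it induces, by -0.25. Cyp3a25, a steroid and drug hydroxylase, ran from 7.76 to 9.06 (median 8.56) and from 5.78 to 8.59 (median 7.63), a difference of -0.95 (SE 0.29, limma adjusted p = 0.755). Of 22 xenobiotic genes 19 were inside 1.5-fold, with a median of -0.01. Egfr, the epidermal growth factor receptor gene, was chosen after its values were seen. It ran from 9.17 to 10.61 (median 10.29) and from 8.97 to 9.87 (median 9.33), a difference of -0.69 (SE 0.20, limma adjusted p = 0.731).

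Of the 31 function lists, 9 lay wholly inside 1.5-fold, gene by gene, and 2 had a median difference beyond 0.1. The first was the unfolded protein and integrated stress response, with a median of -0.18 over 22 genes, 1 of which lay above 0, beside 51.2% of all genes. Its mean signal per array ran from 7.24 to 7.85 (median 7.53) in Fed-Fed-Fed and from 7.03 to 7.59 (median 7.34) in Fast-Fast-Fed, so the groups overlapped. Dnajb9, an endoplasmic reticulum co-chaperone, was the one member with an unadjusted p under 0.05, at -0.40 (SE 0.19, limma adjusted p = 0.888). Fed-Fed-Fed replicate 3 held the highest Dnajb9, 9.47, and the highest mean of the list. Without it the Dnajb9 difference was -0.23 and the list median -0.13. Sdf2l1, another chaperone of that compartment, differed by -0.57 (interval -1.14 to 0.00). In the fasted arrays the list's history median was 0.00.

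The second was the circadian clock, with a median of 0.15 over 18 genes, 14 of them above 0 and 8 inside 1.5-fold. Mean signals per array ran from 4.88 to 5.42 (median 5.08) and from 5.06 to 5.69 (median 5.21). Other lists with smaller medians also leaned to 1 side, with 16 of 19 cholesterol synthesis genes above 0 and 18 of 23 male-biased genes below it. Rora, a nuclear receptor that drives clock transcription, differed by 0.19 (limma unadjusted p = 0.020, adjusted p = 0.856). Per1, a core clock repressor, differed by -0.06 (interval -0.74 to 0.62), and Dbp, a clock output factor, had the widest limit of the list, 2.44-fold. The labels give morning as the time of sampling, with no hour.

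Lists of basic cell functions were bounded gene by gene. All 28 respiratory chain genes and all 25 cytosolic ribosomal protein genes were inside 1.5-fold, with medians of 0.01 and -0.01. The same was true of all 20 autophagy and lysosome genes, all 18 lipoprotein genes, all 11 genes of glycogen and glucose transport and all 4 of ketogenesis. In the lipoprotein list Apoe, the remnant ligand, had an unadjusted p under 0.05 at -0.32 (SE 0.12, limma adjusted p = 0.856). Of 15 hepatocyte identity genes 14 were inside 1.5-fold, and 2 had an unadjusted p under 0.05, beside 5.61% of all genes. These were the forkhead factor gene Foxa1 (0.32) and Cebpa. Cebpa, a transcription factor of hepatocyte genes, ran from 8.05 to 8.30 (median 8.15) in Fed-Fed-Fed and from 8.28 to 8.60 (median 8.41) in Fast-Fast-Fed, so that the ranges barely overlapped. Its difference was 0.26 (SE 0.08, limma adjusted p = 0.755), with an exact permutation p of 0.00047 before adjustment. Cebpa was named for the smallest p of its list, so a second p from the same arrays is no separate support.

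Hormone signalling and sex-biased genes were bounded in part. Of 19 genes of insulin and FoxO signalling 17 were inside 1.5-fold, with a median of 0.01, and 3 had an unadjusted limma p under 0.05, beside 5.61% of all genes. Foxo4, a forkhead factor that insulin restrains, differed by 0.24 (interval 0.03 to 0.45), and the kinase genes Akt2 and Gsk3b differed by -0.15 and -0.18. Among 18 glucocorticoid-responsive genes 11 were inside 1.5-fold, with a median of 0.07, and 3 had an unadjusted p under 0.05, again beside 5.61%. These were Gadd45g, Dusp1 and Klf9 (0.32), all higher. Of 23 male-biased genes 16 were inside 1.5-fold, with a median of -0.06, and Cyp4a12b, a fatty acid hydroxylase, differed by -0.36 (limma adjusted p = 0.888), or by -0.22 without Fast-Fast-Fed replicate 6. Of 16 female-biased genes 11 were inside, with a median of 0.01, and limma gave 0 of them an unadjusted p under 0.05. In the urea cycle and amino acid list 20 of 21 genes were inside 1.5-fold, and the exception was Ass1, the argininosuccinate synthase gene, at a limit of 1.64-fold. Of 15 lipid droplet genes 11 were inside, and of 10 heat shock genes 7, with medians of -0.0019 and -0.06.

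Inflammation and proliferation left no called gene either. Of 19 acute phase genes 16 were inside 1.5-fold, with a median of -0.05, and Hamp, the iron hormone hepcidin, stood at -0.32 (SE 0.12, limma adjusted p = 0.856). Interferon response genes had a median of -0.06 over 18 genes and antigen presentation genes one of -0.05 over 12, with 0 of either at an unadjusted p under 0.05. In the cell cycle list 20 of 21 genes were inside 1.5-fold, 15 lay below 0, and the median was -0.02. Of the 21, 4 had an unadjusted p under 0.05, beside 5.61% of all genes. Cdk2, a kinase of S phase entry, was higher at 0.27, while the cyclin genes Ccnd1 (-0.38) and Ccna2 (-0.22) and the proliferation marker Mki67 (-0.28) were lower. Among 22 immediate early genes 13 were inside 1.5-fold, and 4 had an unadjusted p under 0.05, beside 5.61% of all genes. Junb (0.43), Dusp1 (0.48) and Myc (0.65) were higher and Egr3 (-0.21, at a mean signal of 2.03) was lower. Myc was at 0.37 without Fast-Fast-Fed replicate 2, and Egr3 at -0.13 without Fed-Fed-Fed replicate 7. Dusp1, a phosphatase of MAP kinases that glucocorticoids induce, ran from 5.84 to 7.19 (median 6.45) and from 6.38 to 7.64 (median 6.88), with overlapping ranges.

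**Figure D5:**
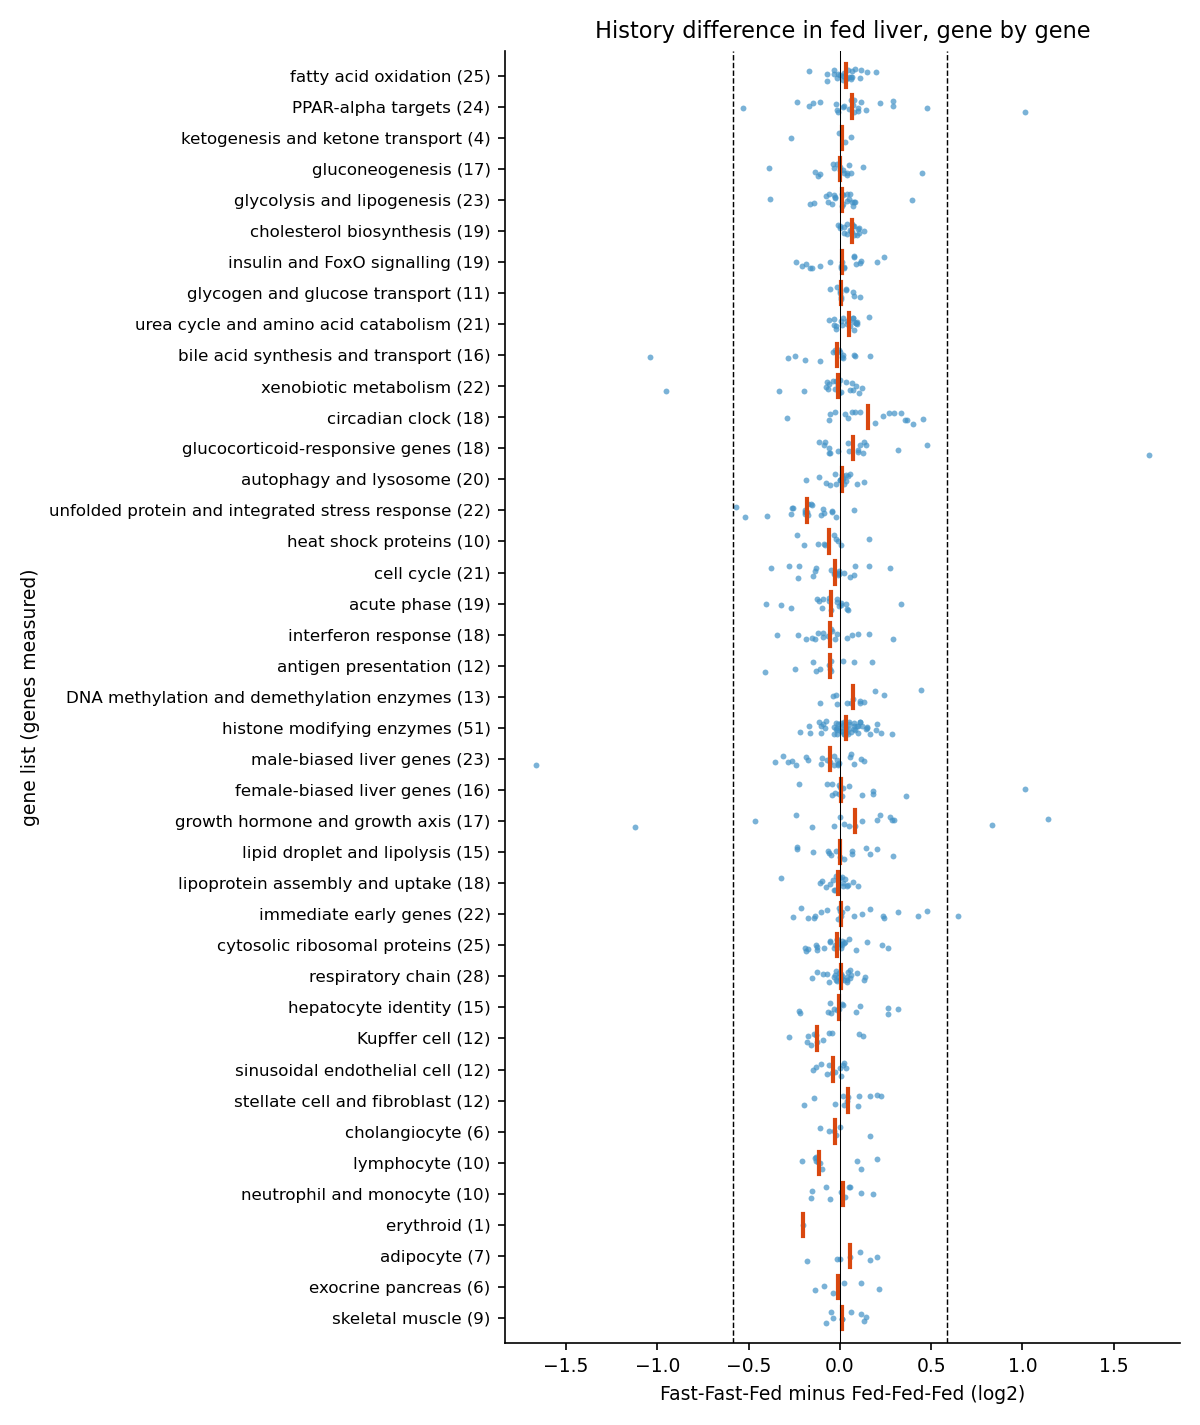
Each row is a gene list with the number of genes measured, each blue point is 1 gene's log2 difference Fast-Fast-Fed minus Fed-Fed-Fed, red ticks are list medians and dashed lines mark 1.5-fold. The unfolded protein list has 1 of 22 points above 0, the male-biased list 5 of 23, the circadian list 14 of 18 and the cholesterol list 16 of 19. The lone points far from 0 are Moxd1, Socs2, Cyp7a1, Cyp3a25, Cyp4a14, Cish, Socs3, Gadd45g and Myc.

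The per-array ranges of marker genes of other liver cells overlapped between the groups. Sinusoidal endothelial markers averaged 6.56 to 7.09 per array in Fed-Fed-Fed and 6.61 to 6.90 in Fast-Fast-Fed, and stellate cell markers 5.05 to 5.33 and 5.08 to 5.40. Kupffer cell markers averaged 5.16 to 6.38 and 4.86 to 6.07, with a median difference of -0.13 over 12 genes, 2 of them above 0. Without Fast-Fast-Fed replicate 5 that median was 0.01, so its sign rested on that array. In all, 6 of 10 marker lists lay wholly inside 1.5-fold, those of cholangiocytes, lymphocytes, neutrophils and monocytes, red cells (1 gene measured), exocrine pancreas and skeletal muscle, and all 6 had mean signals below 3.

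The fasted comparison shares no array with the fed one. Both took 1 spread per gene from the same fit, however, so their p-values are not independent. With limma 0 of 22180 genes differed between Fast-Fast-Fast and Fed-Fed-Fast (0%, unadjusted p under 0.05 for 996 genes, 4.49%). Of the 1245 genes with an unadjusted p under 0.05 in fed liver, 673 had the same sign in fasted liver (54.1%), beside 51.7% of all genes. Of the 1245, 67 also had an unadjusted p under 0.05 in fasted liver, beside 4.49% of all genes. The same sign was held by 35 of the 67. Zc2hc1c, Ak4 and Foxq1 stood at 0.10, -0.04 and 0.16 in fasted liver. The interaction of history and final state also called 0 genes with limma (0%, unadjusted p under 0.05 for 1023 genes, 4.61%). Arhgap31 had differences of 0.41 in fed and -0.36 in fasted liver, and its interaction of 0.77 did not pass (limma adjusted p = 0.135).

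The main directions of variation among the 16 fed arrays did not separate the groups by the test. The first 4 principal components held 10.6, 8.92, 8.12 and 7.56% of the variance, with exact permutation p of 0.325, 0.329, 0.188 and 0.949 and a smallest adjusted p of 0.439. Scores of the first component ran from -20.0 to 14.4 in Fed-Fed-Fed and from -10.7 to 26.9 in Fast-Fast-Fed. Fed-Fed-Fed replicate 3 lay at the low end and Fast-Fast-Fed replicate 5 at the high end.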

How the data were processed

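Liver RNA, 100 ng per sample, was labelled with biotin and hybridised to Affymetrix whole-transcript arrays, per the labels' protocols, 1 array per mouse as the labels number them. The deposited values are log2 signals made by the authors with RMA, per the submitters' processing notes, a method that corrects background, normalises quantiles and summarises probe sets. The version of RMA and the genome build of the array are not given in the sources used here, and detection calls were not used, so no detection limit is given. Values ran from -0.0139 to 13.1. RMA's quantile step gives all arrays nearly 1 distribution, so a shift shared by most genes would not show.

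The platform's annotation, which is dated, gave 1 symbol for 23521 of 41345 probe sets, and for 1082 genes with several the probe set of highest mean over 31 arrays was used, which gave 22180 genes. All 31 arrays were fitted as 4 group means with limma 3.58.1 in R 4.3.3 with the data.table package (1.17.8), two-sided, with Benjamini-Hochberg adjustment over all genes and a threshold of 0.05. Intervals are 95%. Component scores and single named genes were also tested by exact permutation over the 16 fed arrays. The number of arrays limits the precision. Nothing says whether mice shared a litter or cage, so p-values measure the spread between these samples.

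Genes are named by a rule that takes the 15 smallest p, the 6 widest and 6 narrowest intervals, the member of smallest p in each of 31 function lists, and a fixed set of fasting and liver genes, leaving out numbered gene models. The 31 function lists and 10 marker lists held 764 entries, 687 of them measured. The comparison, its members and the lists were chosen with earlier results of these data known. Trim8, Myt1l, Phlda1, Socs3, Egfr, B4galt1, Jak2, Stat5a, Dnmt3a, Socs1, Igf1, Ghr and Csrnp1, further list members and the genes high in the same 5 arrays were chosen after their values were seen.

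The labels do not say that replicate numbers pair the groups, and the main fit took no pairing. Same-numbered fed arrays correlated at -0.023 to 0.108 in their deviations from the group means. Arrays of different numbers were not set beside them, so these values do not decide whether the numbers pair anything. The fit was tested on simulated data with known changes. Sequences come from RefSeq tables on GRCm38.p6, and plots were made in Python 3.11.15 (matplotlib 3.10.9).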

Additional observations from a re-analysis of the deposited data

Results flagged for a closer look

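In 9 of 166 checks of a named gene within a fed group (83 genes, 2 groups of 8), 1 array lay far from the rest by Dixon's ratio, the gap to the nearest array divided by the group's range beyond its 95% critical value. Chance flags about 5% of such checks. Within Fast-Fast-Fed, replicate 1 was lowest for Rnd3 (5.62 against 6.26 in the nearest array, ratio 0.577), and replicate 3 was highest for Taf9 (6.70 against 6.45, ratio 0.565) and for Trim8 (6.30 against 5.93, ratio 0.896). Replicate 5 was lowest for ND4 (12.76 against 12.83, ratio 0.661) and highest for Mgll, a monoglyceride lipase (7.42 against 7.07, ratio 0.627). Replicate 6 was highest for Nr4a1 (4.02 against 3.26, ratio 0.529), and replicate 8 was lowest for the ribosomal protein gene Rpl5 (4.20 against 4.45, ratio 0.552). Within Fed-Fed-Fed, replicate 7 was highest for Slc27a1 (3.42 against 2.94, ratio 0.549) and replicate 3 for Dnajb9 (9.47 against 8.49, ratio 0.545).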

How the results depend on the processing

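The limits come from 8 arrays per fed group, from values without detection calls, and from intervals that take 1 spread per gene over fed and fasted arrays. No gene was called in fed liver with limma under the other fits, normalisations, weights, choices of probe set and thresholds tried, including the fit without the lowest-weighted array of each fed group, which was added after seeing the data. Leaving out each fed array in turn gave 0 to 1 called gene (1130 to 1358 at an unadjusted p under 0.05), 21253 to 21330 genes inside 1.5-fold, 21577 to 21639 genes equivalent within 1.5-fold, and 2569 to 2807 genes called in the first fast. Among genes with a mean signal of 4 or over, 7571 of 7863 were inside 1.5-fold (96.3%) and 7658 were equivalent, counts that are lower because fewer genes were tested. Over all 41345 probe sets, added after seeing the data, 34442 were inside 1.5-fold (83.3%) and 35614 were equivalent. Leaving out 1 fed array turned the sign of the median in 16 of 31 function lists, none with a median beyond 0.07 from 0, and in 6 of 10 marker lists, that of Kupffer cells (-0.13) among them. Of 70 named genes and list members with an unadjusted p under 0.05, 0 changed sign without 1 array and 5 moved by over 1.5 times (Dnajb9, Cyp4a12b, Got2, Myc and Egr3). Of 106 without such a p, 32 changed sign. Genes picked by a small p on these same arrays can hardly change sign, so this contrast does not measure stability. On single genes, the limit of Cyp11b1, Mt2 and Acot1 came inside 1.5-fold under some settings and that of Sqle and Fasn left it. Sqle's farthest limit ran from 0.47 to 0.66 on the log2 scale over the fits without 1 array. With the replicate number as a block, 0 genes were called in fed liver (1312 at an unadjusted p under 0.05), 21448 were inside 1.5-fold and 21729 equivalent, and 2812 were called in the first fast. The numbers pair nothing in the labels, and 2 of 8 Fed-Fed-Fed arrays correlated best with the Fast-Fast-Fed array of their own number.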
